A study of Homo sapiens with 6 samples.

Results

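The 10 genes described here, MYC, MYCN, MYCL, MAX, MXD1, MXD3, MXD4, MXI1, MNT and MGA, encode the network of transcription factors that share the partner MAX. They were chosen by name, and each matched 1 of the 62700 rows of the count table. RNA was sequenced from A673, a Ewing sarcoma cell line that carries the EWS-FLI1 fusion oncogene, in 3 libraries labelled parental control with the genotype EWS-FLI1 wildtype and 3 labelled EWS-FLI1 knockout. Both genotypes were grown in DMEM with 10% fetal bovine serum. The study's title concerns alternative splicing, but the table holds 1 estimated count per gene and no isoform values. The labels do not say whether replicates were separate cultures, nor whether knockout cells came from a single clone. The p-values therefore cover only the variation among these 6 libraries, possibly technical, and a clonal difference cannot be told apart from loss of the fusion.

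MYC, MYCN and MYCL are activators with a basic helix-loop-helix leucine zipper that bind DNA only as dimers with MAX, chiefly at the E-box CACGTG. The MXD proteins (MXD1, MXD3, MXD4 and MXI1), MNT and MGA dimerise with the same MAX and, for the most part, repress: the MXD proteins and MNT recruit the SIN3 histone deacetylase complex, and MGA belongs to a variant Polycomb complex. In many tissues MYC is high in growing cells, whereas MXD members other than MXD3 tend to rise as cells leave the cycle. MYC drives ribosome production and growth, and EWS-FLI1 has long been linked to high MYC in Ewing sarcoma.

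Libraries held 301605666 to 342624492 estimated counts. Scaling between libraries bears on levels and fold changes, though not on ratios of genes within a library. Levels are counts scaled to a common library total (CPM), here of library sizes adjusted by TMM, a scaling that assumes that most genes do not change, and fold changes on the plain total count are given beside them for every member. With TMM, 73.8% of tested genes passed at an edgeR adjusted p under 0.05, and 33.6% passed against a log2 fold change of 1. The assumption of TMM may therefore not hold here. With total counts the median log2 fold change of all 28485 tested genes was 0.42 lower than with TMM (a shift of -0.42), so small changes of a member depend on the scaling. The knockout label could not be checked on the fusion itself, because gene counts add fusion reads to those of normal EWSR1 (log2 fold change -0.26) and FLI1 (0.38). All 10 Ewing sarcoma markers fell, from a summed 1799 to 1849 CPM in parental libraries to 282 to 293 CPM in knockout libraries. All 9 fibroblast and mesenchymal markers rose, from a summed 433 to 458 CPM to between 60123 and 62349 CPM. Summed leukocyte markers were 0.449 to 0.542 CPM in parental and 1.80 to 2.13 CPM in knockout libraries, with MS4A1 at 0 in every library and most of the knockout sum from PTPRC (0.127 ± 0.027 CPM in parental and 1.495 ± 0.157 CPM in knockout libraries). Endothelial markers summed to 0.820 to 0.910 and 8.64 to 9.35 CPM, mostly PECAM1 in the knockout, and epithelial markers to 7.20 to 8.07 and 248 to 270 CPM, mostly KRT18. The part of these markers in the members' changes was not tested. In bulk RNA, fewer cells of a type and less RNA per cell cannot be told apart.

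RefSeq start-site windows (GRCh38.p14, 250 bases before to 50 after an annotated start) were at hand for 9 of the 10 genes, 14 windows in all; none was held for MYC. CACGTG is present in 2 of these 14 windows, 1 of MXD4 and 1 of MNT, and in 2548 of all 35116 windows (7.26%). The 2 windows of MAX contain motifs of the kind ETS proteins such as FLI1 recognise: GGAAGGAA in the first, present in 3.67% of all windows, and CCGGAAG in the second, present in 10.3%. Each of these motifs was present in 1 of the 14 windows, and the windows of the other members, risen or not, held neither. Each MAX window lies wholly inside the annotated gene, whose 5′ end on the minus strand is at position 65102695, so each marks an internal start. Both strands were searched, and CCGGAAG and GGAAGGAA can overlap in a shared GGAAG. These 4 windows are shown because MXD4 and MAX rose and because they hold the network's own motif or an ETS-type motif. Capitals mark the match, which is read on the opposite strand in the first MAX window, and sequences run 5′ to 3′ on the strand of the gene (minus for all 4). The match begins at position -238 from the start in MXD4 (chr4:2262060-2262359), -193 in MNT (chr17:2401011-2401310), -3 in the first MAX window (chr14:65102234-65102533) and -106 in the second (chr14:65101635-65101934).
MXD4: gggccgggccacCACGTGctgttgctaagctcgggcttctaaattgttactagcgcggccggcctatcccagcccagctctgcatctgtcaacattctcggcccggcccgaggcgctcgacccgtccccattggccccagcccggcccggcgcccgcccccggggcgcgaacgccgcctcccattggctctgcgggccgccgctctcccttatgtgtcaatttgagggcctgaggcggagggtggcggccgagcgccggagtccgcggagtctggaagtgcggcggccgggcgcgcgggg
MNT: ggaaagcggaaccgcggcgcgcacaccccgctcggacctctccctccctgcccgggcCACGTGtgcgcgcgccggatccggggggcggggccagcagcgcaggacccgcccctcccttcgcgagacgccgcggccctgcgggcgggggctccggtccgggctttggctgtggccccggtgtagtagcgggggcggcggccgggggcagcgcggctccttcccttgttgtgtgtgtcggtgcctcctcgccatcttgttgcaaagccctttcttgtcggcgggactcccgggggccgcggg
MAX, first window: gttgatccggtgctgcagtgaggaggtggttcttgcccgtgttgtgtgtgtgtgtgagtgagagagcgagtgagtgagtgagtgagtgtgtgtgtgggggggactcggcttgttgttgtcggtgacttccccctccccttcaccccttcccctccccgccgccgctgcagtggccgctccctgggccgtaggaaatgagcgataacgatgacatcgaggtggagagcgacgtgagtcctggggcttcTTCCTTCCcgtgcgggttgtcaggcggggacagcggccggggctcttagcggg
MAX, second window: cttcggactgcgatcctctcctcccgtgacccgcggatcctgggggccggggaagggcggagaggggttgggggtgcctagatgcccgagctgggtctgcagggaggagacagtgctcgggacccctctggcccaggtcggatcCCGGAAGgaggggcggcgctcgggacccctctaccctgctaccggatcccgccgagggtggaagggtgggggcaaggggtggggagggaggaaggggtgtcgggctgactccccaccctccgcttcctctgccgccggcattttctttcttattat
These matches describe letters in the windows and not bound sites, as no binding data were analysed here.

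Among the 10 members, 5 rose (MYCL, MAX, MXD1, MXD4 and MXI1), 2 fell (MYCN and MXD3) and 3 did not pass (MYC, MNT and MGA) at an edgeR adjusted p under 0.05. A share of 70.0% called is close to the 73.8% called among all tested genes, of which 36.3% were higher and 37.5% lower, so the number of changed members is not in itself a result. With total counts 4 rose and 5 fell (25.9% and 52.5% of all genes), with MYC, MNT and MGA among the fallen and MXI1 not passing. Against a log2 fold change of 1, 5 members passed (MYCN, MYCL, MXD1, MXD3 and MXD4), where 33.6% of all genes did. The genotypes did not overlap in TMM CPM for 8 members, the exceptions being MYC and MGA, where 76.7% of all genes had no overlap. All 10 genes passed the filter on low counts.

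**Figure D1:**
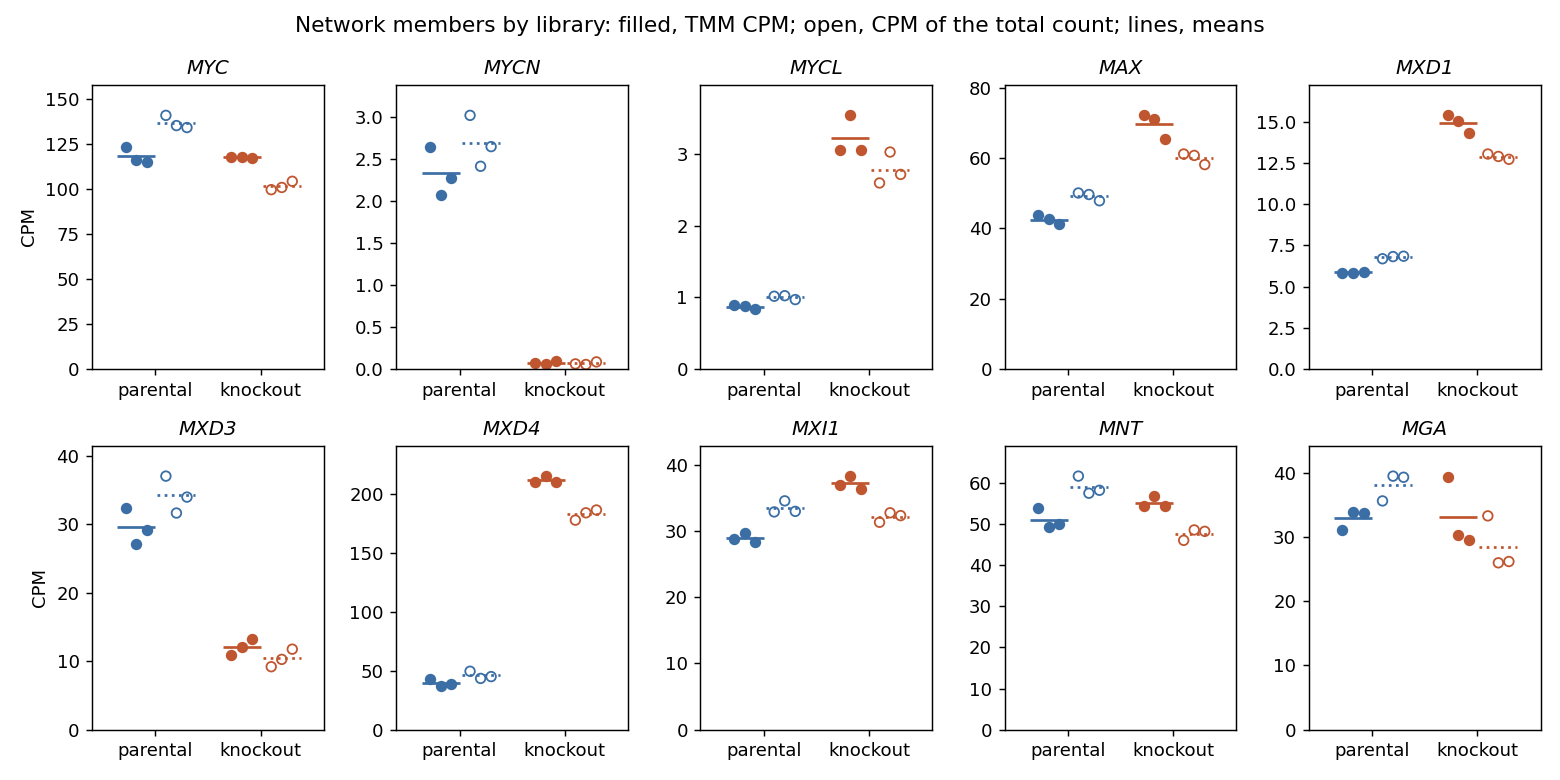
CPM of each member (y axis, from 0) in the 3 parental (blue) and 3 knockout (orange) libraries; filled points are TMM CPM, open points CPM of the total count, and lines are means. MXD4 and MYCN separate widely under both scalings, whereas the MYC points coincide with TMM and separate with total counts.

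MYC itself (chromosome 8, 127735434 to 127741434, GRCh38, plus strand) kept its share of the TMM-scaled library. It measured 123, 115.8 and 115.1 CPM across the parental set against 117.3, 117.7 and 117.3 CPM across the knockout set, so the groups overlapped. The log2 fold change was -0.01 (SE 0.047, adjusted p = 0.911), with a 95% interval from -0.10 to 0.09. With total counts MYC went from 136.6 ± 3.63 to 101.4 ± 2.41 CPM (SD, n = 3), a log2 fold change of -0.43 (adjusted p = 2.70e-07). Whether MYC fell thus depends on the scaling, and its change with total counts is close to the shift of the median gene. Out of 13848 candidates, the genes with the profile most like that of MYC across the 6 libraries included MTX1, APEX2, TRIM11 and NELFE. Their centred log2 CPM differed from MYC by a root mean square of 0.015 to 0.018, and MTX1, a mitochondrial import protein, held 57.8 CPM across the parental set against 57.5 CPM across the knockout set. Of the transcripts beside MYC on chromosome 8, the long noncoding RNA PVT1 held 17.4 ± 0.068 and 18.5 ± 1.03 CPM and did not pass with TMM (0.08, SE 0.055), but passed as lower with total counts (-0.34, edgeR adjusted p = 9.56e-05). PCAT1 fell by 3.18 on the log2 scale (SE 0.34), from 6.29 ± 2.12 to 0.691 ± 0.145 CPM.

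The minor paralogs moved in opposite directions. MYCN (chromosome 2, 15940564 to 15947007), best known from neuroblastoma, measured 2.64, 2.07 and 2.27 CPM across the parental set against 0.0704, 0.0617 and 0.0943 CPM across the knockout set. Every knockout library lay far below every parental one, at 16 to 26 against 782 to 1005 estimated counts. Its log2 fold change was -4.93 (SE 0.18, adjusted p = 1.48e-16) with TMM and -5.35 with total counts. The knockout libraries kept 2.23% of the parental count, above the median of 0.617% kept by the 20 abundant genes that kept least. MYCNOS, the antisense transcript that shares 98 exonic bases with MYCN, also fell (-2.10, SE 0.27). Strand was not stated for these libraries, so reads of the shared bases may not be told apart. MYCL (chromosome 1, 39895426 to 39902256, minus strand), first described in small-cell lung cancer, measured 0.888, 0.877 and 0.832 CPM across the parental set against 3.07, 3.54 and 3.06 CPM across the knockout set. All 3 knockout libraries were above all 3 parental ones, with a log2 fold change of 1.90 (SE 0.11, adjusted p = 7.05e-13) and 1.47 with total counts. Neither paralog weighed much beside MYC. Per kilobase of the longest mRNA, MYC made up 97.7% ± 0.143 of the summed MYC, MYCN and MYCL level before and 98% ± 0.152 after knockout (SD, n = 3).

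MAX (chromosome 14, 65006174 to 65102695, minus strand), the obligate partner, rose. It measured 43.7, 42.5 and 41.1 CPM across the parental set against 72.1, 71.0 and 65.4 CPM across the knockout set, with no overlap. The log2 fold change was 0.71 (SE 0.051, adjusted p = 3.08e-11), and it was 0.29 with total counts (adjusted p = 2.32e-05), so the direction held with a smaller size. Because MAX is the partner all others share, each member was also set against MAX within its own library, a ratio that no scaling between libraries can change. For all 9 other members the 2 genotypes did not overlap in this ratio. Over all genes that share was not computed for the ratio, and it was 76.7% in TMM CPM. The count of 9 is therefore not in itself a result. On the log2 scale MYC over MAX went from 1.47 ± 0.025 to 0.76 ± 0.074 (SD, n = 3), a difference of -0.72. MXD4 over MAX rose by 1.70, MYCL by 1.18 and MXD1 by 0.64. The ratio of MGA changed by -0.72, that of MNT by -0.60, that of MXI1 by -0.35, that of MXD3 by -2.01 and that of MYCN by -5.67. These ratios show unequal change, not which of the paired genes changed.

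**Figure D2:**
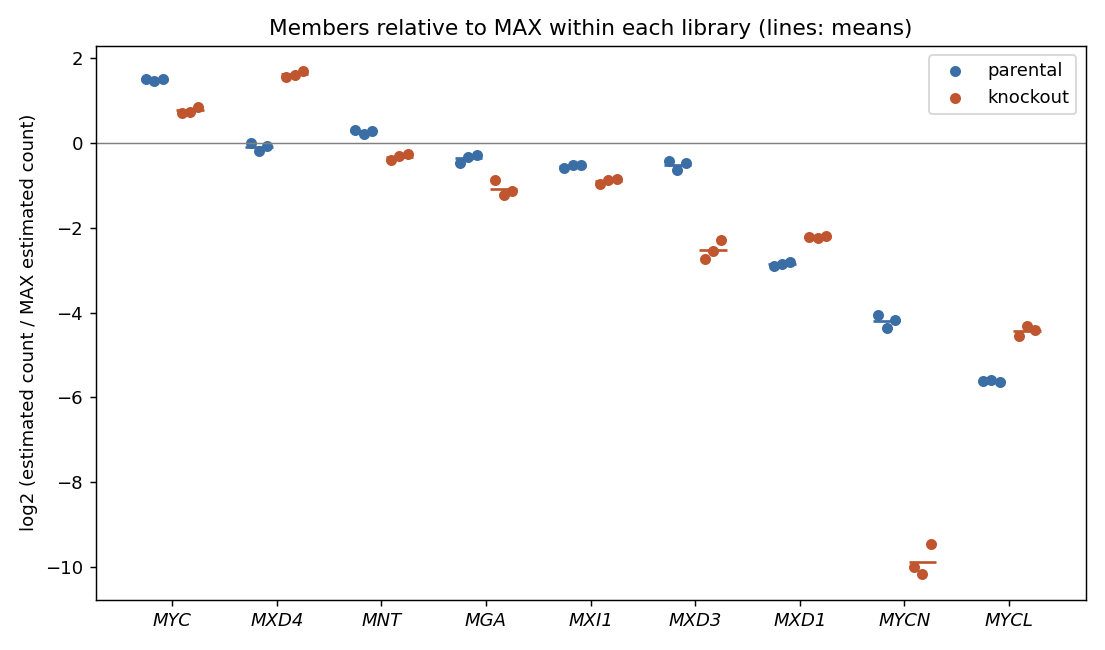
Log2 ratio of each member's estimated count to that of MAX (y axis) in each library, parental in blue and knockout in orange, with lines at the means. Only MXD4, MXD1 and MYCL lie higher in knockout libraries. No member's groups overlap, though the share of all genes without overlap in this ratio was not computed.

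The 4 MXD-type antagonists did not move together. MXD4 (chromosome 4, 2247432 to 2262294, minus strand), a repressor linked to differentiation and quiescence, measured 43.4, 37.3 and 38.7 CPM across the parental set against 209.9, 215.3 and 210.1 CPM across the knockout set. The groups were far apart, at a mean of 39.8 ± 3.16 against 211.8 ± 3.06 CPM, a 5.32-fold rise (log2 fold change 2.41, SE 0.057, adjusted p = 3.82e-20; 1.99 with total counts). Within single libraries the MXD4 count was 0.322 to 0.353 of the MYC count in parental and 1.79 to 1.83 of it in knockout cells. MXD1 (chromosome 2, 69897688 to 69942945), the founding MXD protein, measured 5.85, 5.85 and 5.88 CPM across the parental set against 15.4, 15.1 and 14.3 CPM across the knockout set. Its rise of 2.55-fold (log2 1.35, SE 0.060, adjusted p = 4.36e-15) stood at 0.93 on the log2 scale with total counts. SNRNP27, which shares 237 exonic bases with MXD1 on the same strand, fell (-0.36, SE 0.054).

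MXD3 (chromosome 5, 177301461 to 177312757, minus strand), the family member found in S phase of cycling cells, went the other way. It measured 32.4, 27.2 and 29.2 CPM across the parental set against 10.9, 12 and 13.3 CPM across the knockout set, again with no overlap. The log2 fold change was -1.30 (SE 0.080, adjusted p = 4.27e-09), and -1.72 with total counts. With MXD4 higher and MXD3 lower, the MXD4 count was 1.33 to 1.37 times the MXD3 count in parental libraries and 15.9 to 19.3 times it in knockout libraries. The rise of MXD4 (log2 fold change 2.41) was the larger of these 2 changes. Of 24 proliferation genes 19 fell and 2 rose, where 37.5% of all tested genes fell and 36.3% rose (median -0.69 against -0.06). With total counts 23 fell and 0 rose, where 52.5% of all genes fell and 25.9% rose (median -1.11 against -0.48). The part of the proliferation genes in the fall of MXD3 was not tested. MXD3 shares 926 exonic bases with RAB24 and 1158 with PRELID1, 18% and 22.5% of its annotated exons, and both neighbours fell, RAB24 at -0.72 (SE 0.060) and PRELID1 at -1.03 (SE 0.055) on the log2 scale. The raw count kept in the knockout was 27.9% for MXD3, 41.4% for RAB24 and 33.4% for PRELID1, so a share of reads assigned between them is uncertain. MXI1 (chromosome 10, 110207605 to 110287365) held 28.7, 29.6 and 28.3 CPM across the parental set against 36.9, 38.3 and 36.4 CPM across the knockout set. It rose by 0.36 on the log2 scale (SE 0.049, adjusted p = 8.30e-07) with TMM. With total counts it stood at -0.06 and did not pass (adjusted p = 0.210), so its rise rests on the scaling.

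MNT and MGA, the large MAX partners, changed little with TMM. MNT (chromosome 17, 2384060 to 2401118, minus strand), a widely expressed antagonist of MYC, measured 53.9, 49.3 and 50.03 CPM across the parental set against 54.3, 56.8 and 54.3 CPM across the knockout set. The knockout values lay just above the parental ones, but the log2 fold change of 0.11 (SE 0.050) did not pass (adjusted p = 0.0531). It passed as higher when parental replicate 1 was left out (0.17, adjusted p = 0.00108), and likewise for knockout replicate 1 (0.14, adjusted p = 0.0281) or 3 (0.14, adjusted p = 0.0376), and as lower with total counts (-0.31, adjusted p = 1.98e-05). Over all alternatives tried its sign therefore depended on the scaling. MGA (chromosome 15, 41621224 to 41773081), the scaffold of the variant Polycomb complex, measured 31.1, 33.8 and 33.7 CPM across the parental set against 39.2, 30.4 and 29.5 CPM across the knockout set. Knockout replicate 1 stood above all others and the remaining pair below all others. The log2 fold change was 0.01 (SE 0.12, adjusted p = 0.971; 95% interval -0.22 to 0.23). Without knockout replicate 1 it was -0.12 (adjusted p = 0.0534), and with total counts -0.42 (adjusted p = 0.00490).

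**Figure D3:**
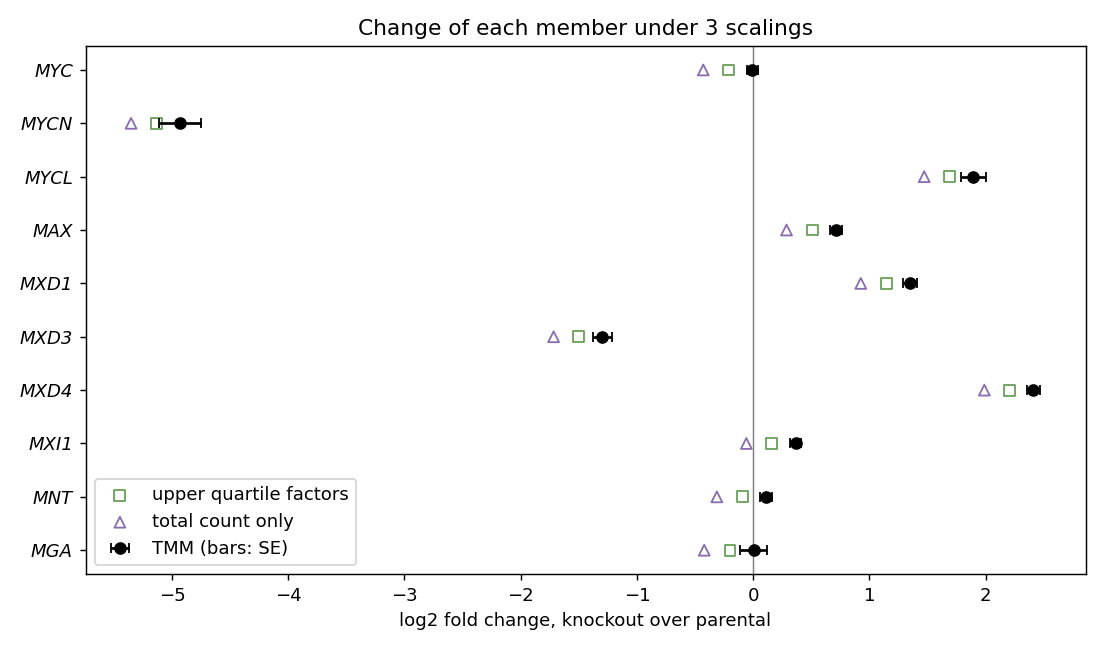
Log2 fold change of knockout over parental (x axis) for each member with TMM (black, bars are SE), upper quartile factors (green squares) and total counts (purple triangles). MYCN and MXD3 lie below 0 and MYCL, MAX, MXD1 and MXD4 above 0 under all 3 scalings, while MXI1, MNT and MGA cross 0. MYC lies at -0.01 with TMM, -0.21 with upper quartile factors and -0.43 with total counts.

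Levels were compared between genes per kilobase of the longest coding transcript in GENCODE 29. In parental cells MYC led at 49.9 ± 1.85 CPM per kb, followed by MAX at 13.5 ± 0.422, MXD3 at 13.0 ± 1.16, MNT at 10.2 ± 0.495, MXD4 at 9.81 ± 0.780 and MXI1 at 8.32 ± 0.192 (SD, n = 3). MAX and MXD3 overlapped, as did MNT and MXD4. MGA at 2.28, MXD1 at 1.05, MYCN at 0.895 and MYCL at 0.266 CPM per kb closed the order. In knockout cells MXD4 came first, at 52.2 ± 0.754 CPM per kb against 49.6 ± 0.102 for MYC, with no overlap. MAX followed at 22.0 ± 1.13, then MNT at 11 and MXI1 at 10.7, which overlapped, MXD3 at 5.31, MXD1 at 2.67 and MGA at 2.29, which overlapped, and MYCL at 0.990. MYCN was last at 0.0290 CPM per kb. With lengths of the exon union MXD4 stood at 30.0 and MYC at 39.1 CPM per kb in knockout cells, so which of them leads depends on the length used.

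Summed per kilobase, the 6 antagonists (MXD1, MXD3, MXD4, MXI1, MNT and MGA) rose from 44.7 ± 2.24 to 84.2 ± 1.16 CPM per kb, and the MYC family stood at 51.0 ± 2.0 and 50.7 ± 0.182. The antagonist sum was 0.887, 0.859 and 0.884 times the MYC family sum in the parental libraries and 1.65, 1.68 and 1.65 times in the knockout libraries. Whether the antagonist sum exceeded the MYC family sum in knockout cells depended on the length used, as the log2 ratio there was 0.73 with the longest mRNA, 0.36 with the exon union and -0.17 with the shortest coding transcript. MXD4 made up 21.9% ± 0.634 of the antagonist sum in parental and 62.0% ± 0.0424 in knockout cells, while MXD3 went from 29.1% ± 1.19 to 6.30% ± 0.637. Leaving MXD4 out, the remaining antagonists held 0.684 ± 0.0085 and 0.632 ± 0.0057 times the MYC family sum. Without MXD4, then, the antagonist sum per kilobase of the longest mRNA was not higher in knockout cells. That difference was small, and the sum without MXD4 was not computed with the other lengths. On the log2 scale the antagonist to MYC ratio rose by 0.92 with the longest mRNA, 0.98 with the exon union and 0.15 with the shortest coding transcript, a length that puts MYC at 342 CPM per kb in parental cells. These are RNA levels, and protein was not measured.

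**Figure D4:**
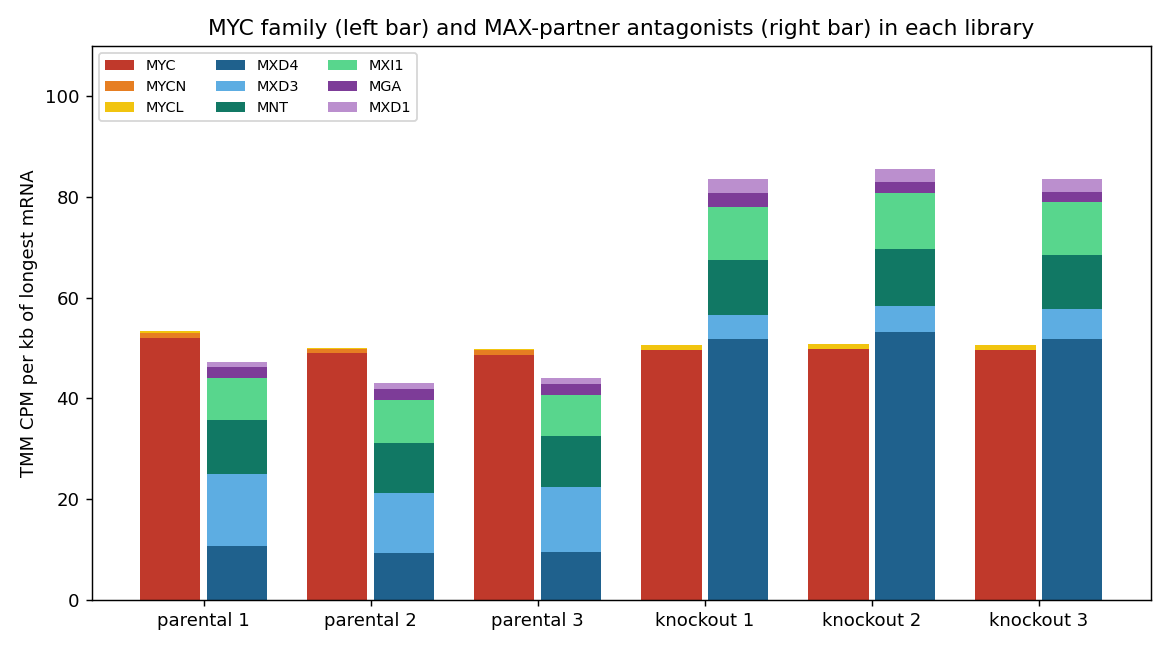
Stacked TMM CPM per kb of the longest mRNA (y axis, from 0) in each library, MYC family in the left bar and the 6 antagonists in the right bar. The left bars stay between 49.8 and 53.3, and the right bars rise from 43.0 to 47.2 in parental to 83.5 to 85.6 in knockout libraries through the MXD4 segment.

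The related MLX arm of the network, in which MLX pairs with the glucose sensors MLXIP (MondoA) and MLXIPL (ChREBP), had 4 of its 5 listed genes lower and 1 higher, where 73.8% of all tested genes changed. MLXIPL fell from 14.3 ± 0.969 to 0.262 ± 0.054 CPM (log2 fold change -5.77, SE 0.11) and MLX from 25.9 ± 0.132 to 19.1 ± 0.258 CPM (-0.44, SE 0.050). MLXIP rose from 52.5 ± 1.38 to 128.4 ± 5.78 CPM (1.29, SE 0.050). TXNIP and ARRDC4, arrestin-family genes known as MondoA targets, fell (log2 fold changes -3.08, SE 0.051, and -5.34, SE 0.081), with TXNIP going from 175.6 ± 5.74 to 20.7 ± 0.137 CPM. The directions of these 5 genes were the same with total counts.

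Cofactors of the network rose and fell in shares to be read against the 36.3% of all tested genes that rose and the 37.5% that fell with TMM. Of 18 MYC coactivators 6 rose and 7 fell (median -0.03), but with total counts none rose and 13 fell. The ATPases RUVBL1 (-1.17, SE 0.049) and RUVBL2 (-1.19, SE 0.053) fell, as did the acetyltransferase KAT5 (-0.69, SE 0.055) and ACTL6A (-0.70, SE 0.049). Among 17 genes of the SIN3 and NCOR corepressors, 5 rose and 9 fell (median -0.13). SIN3B, a scaffold that MXD proteins bind, rose by 0.84 (SE 0.053), whereas HDAC1 (-0.80, SE 0.048), SAP18 (-1.22, SE 0.051) and ING1 (-1.06, SE 0.054) fell. In the MGA complex 4 of 13 rose and 7 fell (median -0.22), with RYBP higher by 1.09 (SE 0.052) and RNF2, its ubiquitin ligase, lower (-1.15, SE 0.054). Of 23 regulators of MYC protein stability 8 rose and 11 fell (median -0.01). The kinase PIM1 rose by 3.94 (SE 0.055), the mitotic kinases PLK1 and AURKB changed by -1.04 (SE 0.048) and -1.25 (SE 0.051), and FBXW7, the ubiquitin ligase adaptor that degrades MYC, did not pass (0.11, SE 0.052, adjusted p = 0.0544). Of 17 regulators of MYC transcription 7 rose and 7 fell (median -0.04). PRDM1, a repressor of MYC in B cells, rose from 0.078 ± 0.017 to 6.25 ± 0.439 CPM (6.32, SE 0.14), and SMAD3, STAT3 and CTNNB1 rose by 1.15, 1.10 and 0.80. Among 9 other zipper factors that bind E-boxes, 4 rose and 2 fell. TFEB, a regulator of lysosomal genes, rose by 4.12 (SE 0.071) and TFE3 by 1.04 (SE 0.047), TFAP4, itself a MYC target, fell (-1.32, SE 0.057), and USF1 at 0.38 turned to -0.04 with total counts. With total counts 25.9% of all tested genes rose and 52.5% fell (median -0.48), and the lists moved with that shift, to medians of -0.27 to -0.64: 2 rose and 14 fell among the corepressors, 2 and 10 in the MGA complex, 3 and 17 among the stability regulators, 5 and 11 among the transcription regulators and 2 and 5 among the E-box factors. FBXW7 then passed as lower (-0.31).

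Genes known as MYC-activated were mostly lower although MYC RNA was level with TMM. Among 56 of them, 48 were lower and 7 higher by the test, and the median change was -0.70 on the log2 scale against -0.06 over all tested genes, of which 37.5% fell. With total counts 51 fell and 4 rose (median -1.12 against -0.48). Against a log2 fold change of 1, 15 were lower and 3 higher. Of all 28485 tested genes, 4412 were lower and 5153 higher by that test, together 33.6%. NCL (nucleolin) fell from 1626 ± 19.7 to 615 ± 31.7 CPM (-1.40, SE 0.050) and NPM1 (nucleophosmin) from 924 ± 36.5 to 274 ± 11.8 CPM (-1.76, SE 0.051), both abundant nucleolar proteins of ribosome assembly. The polyamine enzyme ODC1 (-0.66, SE 0.049), the initiation factor EIF4A1 (-1.92, SE 0.048) and the telomerase subunit TERT (-6.85, SE 0.14) also fell. The cyclin CCND2 rose by 6.14 (SE 0.089), from 0.246 ± 0.027 to 17.5 ± 0.677 CPM, and the transferrin receptor TFRC by 1.76 (SE 0.051). NPM1 and EIF4A1 have processed copies in the genome, so their read assignment is uncertain. Of 16 genes known as MYC-repressed 15 were tested, of which 11 rose and 4 fell (median 1.17; 9 rose and 6 fell with total counts, median 0.74), where 36.3% of all genes rose. CLU (clusterin), the transcription factor CEBPD and NDRG1 rose by 5.45 (SE 0.058), 5.05 (SE 0.065) and 3.75 (SE 0.053). CDKN1A, the CDK inhibitor p21, passed narrowly as higher with TMM (0.11, SE 0.047, adjusted p = 0.0445) and as lower with total counts (-0.31). Both target lists were written from general knowledge but with earlier results of these data known, so their counts are not independent evidence. Several of their genes also answer to other factors.

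**Figure D5:**
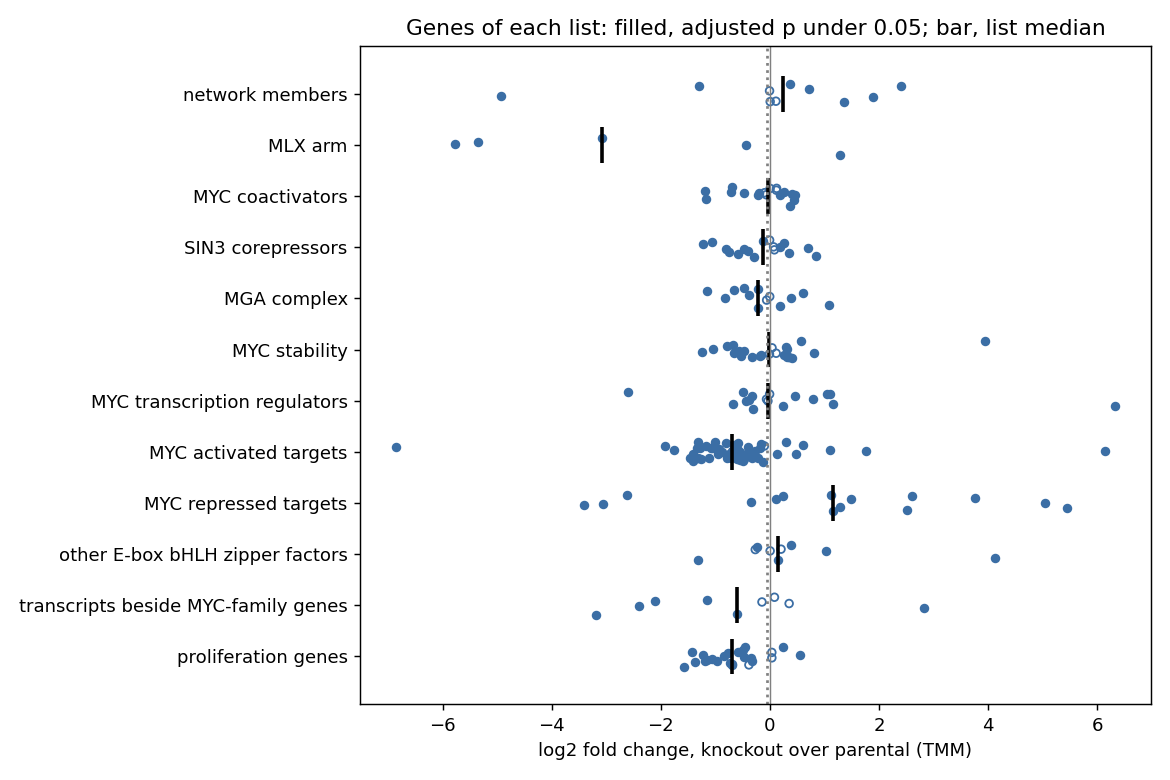
Log2 fold change with TMM (x axis) of the tested genes of each list, filled where the adjusted p was under 0.05; black bars are list medians and the dotted line is the median of all genes (-0.06). The medians of the MYC-activated and proliferation lists lie near -0.70 and -0.69, and those of the cofactor lists lie between -0.22 and -0.01.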

How the data were processed

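RNA of 3 parental and 3 knockout A673 libraries was polyA-selected and sequenced on an Illumina NovaSeq, per the labels' protocols. The authors deposited 1 table of estimated counts per gene (62700 rows). The submitters' processing notes name kallisto 0.48.0 and hg38. Which annotation release, filters and strand setting the authors used is not given in the sources used here. This tool divides reads among compatible transcripts, so overlapping genes and copies are uncertain.

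Estimated counts were rounded, filtered with filterByExpr (minimum count 10, minimum total 15; 28485 genes kept), and scaled by TMM. Tests used edgeR 4.0.16 under R 4.3.3 (robust quasi-likelihood fit on all 6 libraries, genotype as only term, two-sided, Benjamini-Hochberg over all tested genes at 0.05). SE is the log2 fold change divided by the square root of F; 95% intervals use the normal approximation. Variation between libraries beyond counting error (edgeR's common coefficient) was 7.53%, and whether it is biological or technical is not known. A count floor of 3 equals 0.0075 to 0.0117 CPM and covers counting error only. Steps were tested on simulated data in which few genes changed, as many up as down. That simulation could not test the choice of scaling. No pair of replicates agreed within sampling noise (chi-square per degree of freedom 11.1 to 78.1). Lengths and gene positions came from GENCODE 29 (GRCh38), since RefSeq mRNA lengths were not used here, and start windows from RefSeq (GRCh38.p14). Alternatives used DESeq2 1.42.0, limma 3.58.1 and other scalings and filters. Members, lists and alternatives were chosen with earlier results of these data known. Genes named were all members, fixed genes of interest and up to 4 genes of smallest adjusted p (mean CPM of at least 1) from each list. EWSR1, FLI1 and some of the genes whose exons overlap a member's were also added. One gene that the rule names among those most like MYC is not reported here.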

Additional observations from a re-analysis of the deposited data

How the results depend on the processing

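MYCN, MYCL, MXD1, MXD3 and MXD4 kept their direction and their call in every alternative run. MAX (0.71) and MXI1 (0.36) no longer passed against a log2 fold change of 1, where 3 members were higher. With total counts 5 members were lower, and the log2 fold changes were -0.43 for MYC, -0.059 for MXI1, -0.31 for MNT and -0.42 for MGA. Upper quartile factors gave -0.21 for MYC (passing), -0.094 for MNT and -0.20 for MGA. DESeq2 size factors and the DESeq2 Wald test gave 0.019 for MYC and 0.14 for MNT, which passed. MGA stood at -0.023 with no filter on low counts, -0.036 with at least 1 CPM in 3 libraries and -0.0070 with limma-voom. Leaving out single libraries gave -0.010 to 0.047 for MYC, 0.10 to 0.17 for MNT and -0.12 to 0.10 for MGA. Over all genes, 6650 rose and 6975 fell with at least 1 CPM in 3 libraries, as fewer genes were tested, and 5153 and 4412 against a log2 fold change of 1. MYC-activated genes higher numbered 4 with total counts and 3 against a log2 fold change of 1, where 15 were lower. The log2 antagonist to MYC family ratio was -0.62 in parental and 0.36 in knockout libraries with exon union lengths, and -0.33 and -0.17 with the shortest coding transcript. Apart from those construction effects, the cause of these differences was not tested. Genotypes share replicate numbers, but same-numbered libraries deviated together with correlations of only -0.25 to 0.03, and none correlated best with its own number. With a replicate block 10041 genes rose and 10377 fell, MGA stood at -0.0058, and no member's call changed. Counting error limits MYCN most, at 16 to 26 counts in knockout libraries.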
